A study of Saccharomyces cerevisiae with 4 samples.

Results

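The 10 genes described here encode proteins that sense stress on the yeast cell wall or build its outer layer. They are 5 sensor genes (*WSC1*, YOR008C; *WSC2*, YNL283C; *WSC3*, YOL105C; *WSC4*, YHL028W; *MID2*, YLR332W), 4 genes of the PIR family (*PIR1*, YKL164C; *HSP150*, YJL159W; *PIR3*, YKL163W; *CIS3*, YJL158C) and *CWP1* (YKL096W). They were chosen by name from the 6692 genes of the count table, and all 10 were found there. The choice was made with earlier results of the comparison between the strains known. The strain differences of these genes are therefore given as a description, without p-values, and nothing is read from whether they passed a test. Polyadenylated RNA was sequenced from 2 *sis2Δ* and 2 BY4741 cultures (A and B), harvested at mid-log phase from 15 ml of synthetic complete medium with 2% glucose. The *sis2Δ* strain comes from a haploid knockout collection and has *SIS2* replaced by the kanMX cassette in BY4741, so that both strains are *MATa his3Δ1 leu2Δ0 met15Δ0 ura3Δ0*. No second, independently made *sis2Δ* strain is described in the sources used here. The study used these libraries to look for transcripts that differ when *SIS2* is absent, a deletion whose replicative lifespan it had measured.

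The yeast wall is a layer of glucan and chitin covered by mannoproteins. Wsc1, Wsc2, Wsc3 and Mid2 span the plasma membrane, reach into the wall with a long chain of serines and threonines that carries sugars, and signal through the exchange factor Rom2 and the GTPase Rho1 to the kinase Pkc1. Pkc1 starts a MAP kinase cascade (Bck1, Mkk1 and Mkk2, Slt2) that acts on the transcription factor Rlm1 and on the SBF complex. Wsc4 shares the extracellular domain of the Wsc family and is the member with the least defined role. PIR proteins carry internal repeats and are bound to the glucan through a bond that mild alkali breaks. Cwp1 is a mannoprotein attached through a GPI anchor remnant, and its sequence also holds a match to the PIR repeat.

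The libraries held between 19001619 and 28069619 counts on genes. Of the genes in the table, 5959 had 0.5 CPM (counts scaled by library size) or more in 2 libraries or more and were tested, and all 10 genes were among them. Levels below are CPM scaled by TMM, a method that sets the libraries on a common scale. *SIS2* averaged 0.329 ± 0.053 CPM in *sis2Δ* and 132 ± 21.0 CPM in BY4741 (SD, n = 2 each). The *MATa* genes *STE2*, *BAR1*, *MFA1*, *MFA2*, *STE6* and *AGA2* summed to 2269 and 2305 CPM in the *sis2Δ* libraries and to 1652 and 1731 CPM in the BY4741 libraries. The genes of the opposite mating type (*STE3*, *MF(ALPHA)1*, *MF(ALPHA)2* and *SAG1*) summed to 80.1 and 80.4 CPM in *sis2Δ* and to 47.5 and 44.5 CPM in BY4741, and *MF(ALPHA)2* had at most 11 counts in any library. Both sums were thus higher in *sis2Δ*, and their part in the results below was not tested. The study describes the cultures as independent.

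The upstream regions of 2 genes are shown, because *WSC4* had the largest strain difference of the 10 genes and *HSP150* the highest level. Each holds the 250 bases before the start codon and the first 50 bases of the coding sequence, read from the R64 genome, the build to which the reads were mapped. The region of *WSC4* is chrVIII:48513-48812 on the plus strand and that of *HSP150* is chrX:120199-120498 on the plus strand. Capitals mark the start codon and, in *HSP150*, a match to the Rlm1 site.
WSC4: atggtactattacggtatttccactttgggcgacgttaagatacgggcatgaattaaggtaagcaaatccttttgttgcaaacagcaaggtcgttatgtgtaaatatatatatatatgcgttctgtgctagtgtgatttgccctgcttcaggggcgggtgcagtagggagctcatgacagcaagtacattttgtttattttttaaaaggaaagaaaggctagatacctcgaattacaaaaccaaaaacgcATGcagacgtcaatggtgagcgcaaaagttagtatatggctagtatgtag
HSP150: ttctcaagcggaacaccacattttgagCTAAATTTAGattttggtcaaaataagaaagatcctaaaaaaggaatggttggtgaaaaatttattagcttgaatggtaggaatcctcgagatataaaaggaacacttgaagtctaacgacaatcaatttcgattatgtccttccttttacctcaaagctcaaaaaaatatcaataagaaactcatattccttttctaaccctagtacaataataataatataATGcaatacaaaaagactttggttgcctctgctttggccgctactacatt
The Rlm1 site, searched on both strands, was present in 1.0% of 6001 upstream regions of this length and in only *HSP150* among the 10 genes, where the match lies 223 to 214 bases before the start codon and is counted once per strand because its letters read the same on both. CNCGAAA, a form of the SBF site, was present in *WSC3* only, against 13.8% of all regions, and TGAAACA, the Ste12 site, in none of the 10, against 7.5%. The *WSC4* region held none of these 3 motifs, which says only that these letters are not in this window.

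The PIR genes resemble each other closely enough that the origin of a read had to be checked. Their proteins, translated from the R64 coding sequences, were between 59.5% (*PIR3* and *CIS3*) and 84.7% (*PIR1* and *HSP150*) identical over the aligned residues, against 34.2% to 51.2% among the 4 Wsc proteins. The PIR repeat, a stretch of 8 residues with 3 fixed glutamines, was found 11 times in *HSP150*, 8 times in *PIR1*, 8 times in *PIR3*, once in *CIS3* and once in *CWP1*. Pir1 and Pir3 have 341 and 325 residues, Hsp150 has 413 and Cis3 227. The longest identical DNA stretches between members are shown, since they are what a read would have to span. That of *PIR1* and *PIR3* has 81 bases near the 5′ end of both coding sequences, at chrXI:142701-142781 on the minus strand in *PIR1* and chrXI:144439-144519 on the plus strand in *PIR3*. That of *HSP150* and *CIS3* has 65 bases near the 3′ end of both, at chrX:121451-121515 on the plus strand in *HSP150* and chrX:122440-122504 on the minus strand in *CIS3*.
PIR1 and PIR3: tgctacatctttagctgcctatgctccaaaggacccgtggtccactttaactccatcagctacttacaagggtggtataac
HSP150 and CIS3: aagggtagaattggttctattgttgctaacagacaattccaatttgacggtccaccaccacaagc
Both stretches are shorter than a read of 100 bases, and for each of the 10 genes 0 of its 100-base windows occurred anywhere else in the genome. Shorter, trimmed reads could still fall within a shared stretch.

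Among the sensors, *WSC4* differed most between the strains. *WSC4* (chrVIII:48763-50580 on the plus strand, a single coding exon of 1818 bases, as the other 9 genes also have 1 exon) had 66.1 and 49.1 CPM in *sis2Δ* libraries A and B, against 21.9 and 19.7 CPM in BY4741 libraries A and B. Both *sis2Δ* libraries thus lay above both BY4741 libraries, and the 2 *sis2Δ* libraries were farther apart than the 2 BY4741 libraries. The mean was 57.6 ± 12 CPM in *sis2Δ* and 20.8 ± 1.52 CPM in BY4741 (SD, n = 2 each). The log2 fold change was 1.46 with a standard error (SE) of 0.15, or 2.76-fold higher in *sis2Δ*. In bulk libraries, more cells that express a gene and more of its RNA per cell cannot be told apart. Leaving out 1 library at a time gave log2 fold changes between 1.25 and 1.66.

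The other sensors differed less. *WSC1*, which encodes a main sensor of wall stress and lies at chrXV:341278-342414 on the minus strand, had 219 and 210 CPM in *sis2Δ* A and B, against 232 and 226 CPM in BY4741 A and B. Its libraries did not overlap between the strains, but the gap was small, a log2 fold change of -0.10 (SE 0.11). *WSC2*, at chrXIV:105184-106695 on the minus strand, had 91.0 and 78.3 CPM in *sis2Δ*, against 74.4 and 58.9 CPM in BY4741, a log2 fold change of 0.34 (SE 0.13). Both *sis2Δ* libraries were higher, though *sis2Δ* B and BY4741 A were nearly level. Its closest relative by protein identity, *WSC3* at chrXV:114138-115808 on the minus strand, had 34.4 and 28.4 CPM in *sis2Δ*, against 30.0 and 24.8 CPM in BY4741, and the strains overlapped (log2 fold change 0.19, SE 0.14). *MID2*, which encodes the sensor that also responds to mating pheromone and lies at chrXII:790676-791806 on the plus strand, had 127 and 108 CPM in *sis2Δ*, against 136 and 117 CPM in BY4741. These values also overlapped, with a log2 fold change of -0.11 (SE 0.12).

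**Figure D1:**
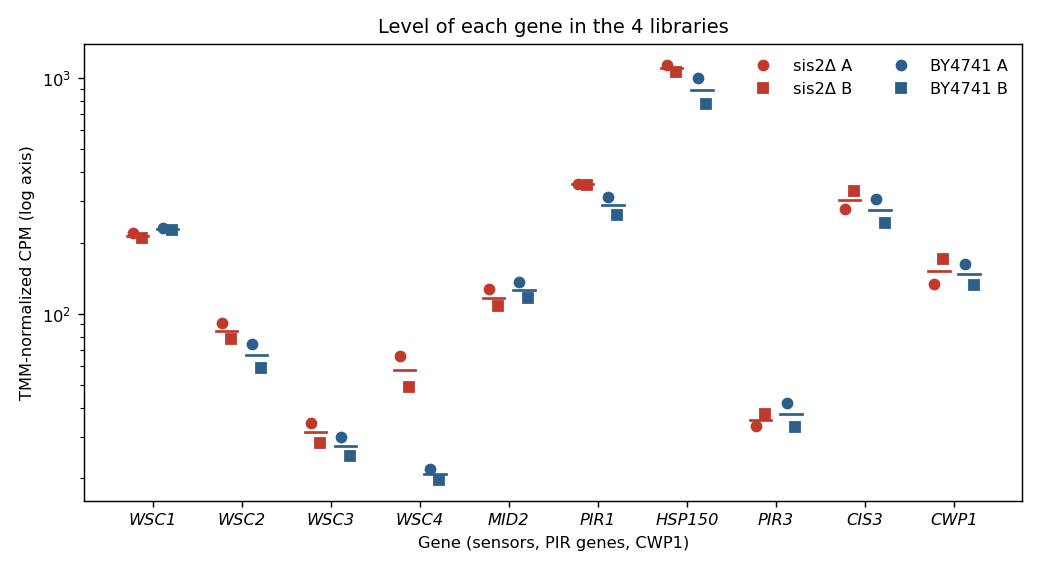
TMM-normalized CPM (log axis) of the 10 genes in each library, with *sis2Δ* (red) left of BY4741 (blue), replicate A as circles, replicate B as squares and horizontal lines for the mean of each strain. *WSC4* shows the widest gap, 57.6 CPM in *sis2Δ* against 20.8 CPM in BY4741.

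The place of *WSC4* among the sensors differed between the strains. Levels of different genes were compared as CPM per kilobase of coding sequence. On that scale *WSC4* averaged 31.7 in *sis2Δ* and 11.5 in BY4741, while *WSC3* averaged 18.8 in *sis2Δ* and 16.4 in BY4741. *WSC4* was therefore above *WSC3* in both *sis2Δ* libraries and below it in both BY4741 libraries. *WSC4* made up 8.63% and 7.19% of the summed level of the 5 sensor genes in *sis2Δ* A and B, against 2.99% and 2.96% in BY4741 A and B. *WSC1* remained the largest contributor in every library, with 45.6% and 49.1% in *sis2Δ* and 50.6% and 54.2% in BY4741. The sum itself was 422 and 376 CPM per kilobase in *sis2Δ*, against 403 and 367 in BY4741, so the totals overlapped between the strains.

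The PIR genes differed little between the strains. *HSP150*, whose product is secreted as well as bound to the wall and which lies at chrX:120449-121690 on the plus strand, had 1138 and 1062 CPM in *sis2Δ* A and B, against 995 and 778 CPM in BY4741 A and B. Both *sis2Δ* libraries were higher, and the BY4741 libraries lay farther apart than the *sis2Δ* ones. The log2 fold change was 0.31 (SE 0.18). *PIR1*, at chrXI:141794-142819 on the minus strand, had 356 and 352 CPM in *sis2Δ*, against 313 and 263 CPM in BY4741, again without overlap (log2 fold change 0.30, SE 0.12). *CIS3*, which encodes the shortest PIR protein of the 4 and lies at chrX:122265-122948 on the minus strand, had 277 and 330 CPM in *sis2Δ*, against 308 and 242 CPM in BY4741. Its strains overlapped, with a log2 fold change of 0.14 (SE 0.14). *PIR3*, at chrXI:144401-145378 on the plus strand, had 33.4 and 37.6 CPM in *sis2Δ*, against 42.0 and 33.0 CPM in BY4741, and the 2 *sis2Δ* values lay between those of BY4741 (log2 fold change -0.08, SE 0.14).

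*CWP1*, a structural mannoprotein gene whose transcript is most abundant in the S and G2 phases and which lies at chrXI:261132-261851 on the plus strand, had 134 and 171 CPM in *sis2Δ* A and B, against 163 and 132 CPM in BY4741 A and B. The strains overlapped, and the log2 fold change was 0.04 (SE 0.14). Its relative *CWP2*, which lies 1600 bases upstream of it on the same strand, had 1730 and 2063 CPM in *sis2Δ*, against 1310 and 1316 CPM in BY4741. *CWP2* had a log2 fold change of 0.53 (SE 0.20) and did not pass the test (adjusted p = 0.158 by edgeR, between 7.1e-04 and 0.199 over 8 alternatives, of which 2 gave a call).

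**Figure D2:**
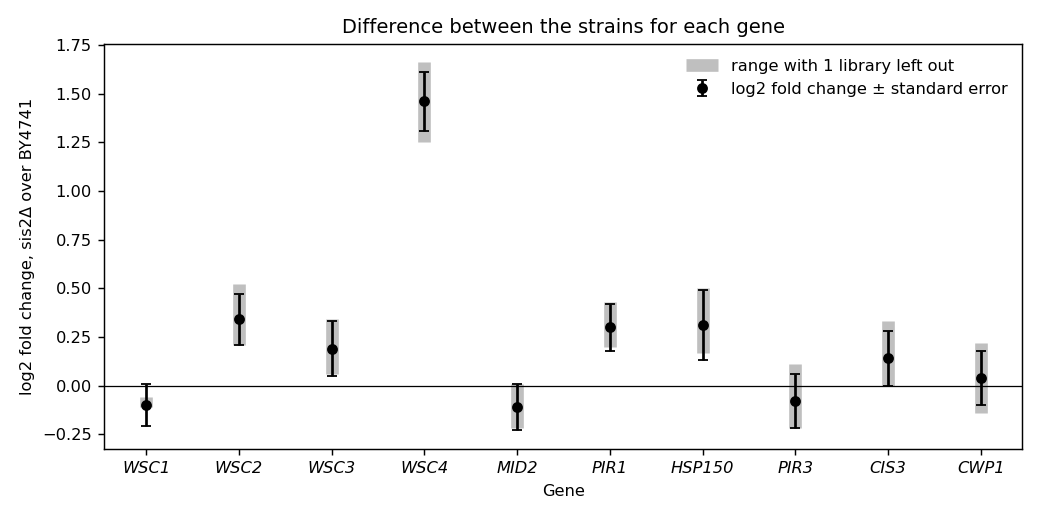
Log2 fold change of *sis2Δ* over BY4741 for the 10 genes, with points and bars for the value and its SE, and grey bands for the range when each library is left out in turn. *WSC4* lies at 1.46 and the other 9 genes between -0.11 and 0.34.

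Counted together, edgeR called (adjusted p under 0.05) 1 of the 10 genes (*WSC4*), and 6.07% of all tested genes. Because the comparison was known when the genes were chosen, nothing is read from that count. The libraries of the strains did not overlap for 5 of the 10 genes, against 53.1% of all tested genes, so non-overlap was about as frequent as elsewhere. The median log2 fold change of the 10 genes was 0.17, with 7 higher and 3 lower, against a median of -0.005 over all tested genes. The range was -0.11 to 1.46. Leaving out 1 library at a time gave log2 fold changes between -0.22 and 0.01 for *MID2* and between -0.22 and 0.11 for *PIR3*. For *CWP1* they lay between -0.14 and 0.22, so the sign of each of these 3 genes depended on the library left out. The lower end for *CIS3* was 0.00, and the log2 fold change of *WSC1* (-0.10) was smaller in size than its SE (0.11).

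The order of the levels was nearly the same in both strains. In CPM per kilobase of coding sequence, *HSP150* came first with 886 in *sis2Δ* and 714 in BY4741, followed by *CIS3* with 444 in *sis2Δ* and 402 in BY4741 and *PIR1* with 345 in *sis2Δ* and 280 in BY4741. *CWP1* (212 in *sis2Δ* and 205 in BY4741) and *WSC1* (189 in *sis2Δ* and 201 in BY4741) followed, and their libraries overlapped in both strains. *MID2* came next with 104 in *sis2Δ* and 112 in BY4741, then *WSC2* with 56.0 in *sis2Δ* and 44.1 in BY4741. *PIR3* was the PIR gene with the lowest level, 36.3 in *sis2Δ* and 38.3 in BY4741. It overlapped with *WSC4* in *sis2Δ* and with *WSC2* in BY4741. *PIR3* supplied 2.01% to 2.24% of the summed PIR level in *sis2Δ* and 2.66% to 2.69% in BY4741, and it and *PIR1* are divergent neighbours with 1581 bases between their coding sequences.

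Within BY4741, replicate A was above replicate B for all 10 genes, against 49.4% of all tested genes. The log2 ratio of A over B ranged there from 0.04 for *WSC1* to 0.35 for *HSP150*, *PIR3* and *CIS3*, with a median of 0.29 over the 10 genes. The count was also 10 of 10 under the 2 other scalings. The share of all tested genes was then 41.3% (scaled by library size) and 45.6% (median-ratio size factors). With TMM, A was also above B in BY4741 for 70.3% of the 101 tested genes in the 5 lists of other wall genes below. By list, that share ran from 64.3% (glucan genes) to 83.3% (chitin genes). Within *sis2Δ*, replicate A was above B for 7 of the 10 genes, against 47.8% of all tested genes, and all 5 sensors were among them. *PIR3*, *CIS3* and *CWP1* went the other way there, with log2 ratios of -0.17, -0.26 and -0.35. For 7 of the 10 genes (*WSC2*, *WSC3*, *MID2*, *HSP150*, *PIR3*, *CIS3* and *CWP1*), the log2 ratio between the BY4741 replicates was at least as large in size as the log2 fold change between the strains, at 2 decimals. For *WSC2* both values were 0.34. The share of all tested genes that meet this was not computed, so nothing is read from the count.

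**Figure D3:**
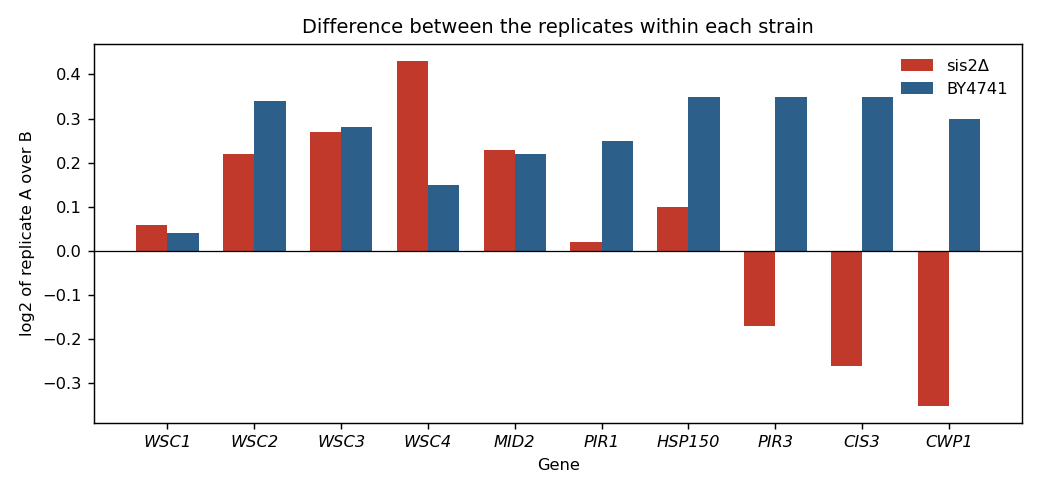
Log2 ratio of replicate A over replicate B (TMM-normalized CPM) within *sis2Δ* (red) and within BY4741 (blue) for the 10 genes. All BY4741 bars are above 0, and the *sis2Δ* bars of *PIR3*, *CIS3* and *CWP1* are below 0.

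Other genes of the signalling pathway of the sensors were examined as a list of 22, all of which were tested. The list holds genes of the cascade and also others, such as *MTL1* and the phosphatase gene *SDP1*. Like the lists below, it was written with earlier results of these data known, so its counts are not independent of them. Of the 22 genes, edgeR called 3 lower and 0 higher in *sis2Δ*, where 3.36% of all tested genes were called lower and 2.72% higher. Called or not, 13 of the 22 were higher and 9 lower. The unadjusted p was under 0.05 for 4 of the 22, against 21.0% of all tested genes. The 3 called genes encode the MAP kinase at the end of the cascade (*SLT2*), its pseudokinase paralogue (*KDX1*) and a dual-specificity phosphatase that acts on Slt2 (*SDP1*). *SLT2* had 129 and 109 CPM in *sis2Δ*, against 181 and 175 CPM in BY4741, a log2 fold change of -0.58 (SE 0.11, adjusted p = 0.00997 by edgeR). *KDX1* had 16.8 and 19 CPM in *sis2Δ*, against 28.2 and 26.4 CPM in BY4741 (log2 fold change -0.61, SE 0.13, adjusted p = 0.0173). *SDP1* had 25.2 and 22.4 CPM in *sis2Δ*, against 37.7 and 35.8 CPM in BY4741 (log2 fold change -0.63, SE 0.12, adjusted p = 0.0112). Both *sis2Δ* libraries lay below both BY4741 libraries for all 3, and all 8 alternatives with the 4 libraries gave a call. The call of *KDX1* was lost without *sis2Δ* A (adjusted p = 0.0888) and without BY4741 A (adjusted p = 0.0642).

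The rest of the list did not pass the test. *RLM1*, the transcription factor below Slt2, had 99.2 and 77.7 CPM in *sis2Δ*, against 94.1 and 79.5 CPM in BY4741 (log2 fold change 0.02, SE 0.13). *PKC1* had a log2 fold change of 0.11 (SE 0.12), *RHO1* of -0.14 (SE 0.13) and *BCK1* of 0.15 (SE 0.13). *MTL1*, the paralogue of *MID2*, had 90.2 and 60.2 CPM in *sis2Δ*, against 69.1 and 58.1 CPM in BY4741, and the strains overlapped (log2 fold change 0.24, SE 0.16). The median log2 fold change of the list was 0.04.

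Of 22 tested genes for other wall proteins, out of 23 listed, edgeR called 3 higher and 2 lower in *sis2Δ*. Over all tested genes, 2.72% were called higher and 3.36% lower. Called or not, 11 of the 22 were higher and 11 lower. The unadjusted p was under 0.05 for 10 of the 22, against 21.0% of all tested genes. This list too was written with earlier results of these data known, so its counts are not independent of them. *TIP1*, a mannoprotein gene induced by cold shock, had 357 and 386 CPM in *sis2Δ*, against 246 and 210 CPM in BY4741 (log2 fold change 0.70, SE 0.12, adjusted p = 0.0054 by edgeR). *SPI1*, a wall protein gene that responds to weak acids, had 257 and 224 CPM in *sis2Δ*, against 155 and 144 CPM in BY4741 (log2 fold change 0.69, SE 0.11, adjusted p = 0.00351). *FLO11*, the flocculin gene of filamentous growth, had 16.0 and 11.7 CPM in *sis2Δ*, against 9.07 and 6.78 CPM in BY4741 (log2 fold change 0.78, SE 0.19, adjusted p = 0.0337). *TIR1*, a mannoprotein gene of anaerobic growth, had 4.09 and 3.91 CPM in *sis2Δ*, against 6.69 and 6.72 CPM in BY4741. *TIR3*, another such gene, had 4.47 and 5.01 CPM in *sis2Δ*, against 7.71 and 8.36 CPM in BY4741. The log2 fold changes of both were -0.75, with adjusted p of 0.0349 for *TIR1* and 0.0284 for *TIR3*, and limma-voom gave no call for *TIR1* (adjusted p = 0.065), *TIR3* (adjusted p = 0.0519) or *FLO11* (adjusted p = 0.0524). *TIR1* was also not called with DESeq2 (adjusted p = 0.0663), library size alone (adjusted p = 0.0753) or no filter beyond 1 count (adjusted p = 0.0522), nor *TIR3* with library size alone (adjusted p = 0.0556). Without BY4741 B, the adjusted p was 0.059 for *TIP1*, 0.15 for *TIR1*, 0.16 for *TIR3* and 0.121 for *FLO11*, and without *sis2Δ* A it was 0.0995 for *TIR1*, 0.123 for *TIR3* and 0.191 for *FLO11*. *TIR1* had no call without *sis2Δ* B (adjusted p = 0.0538) or BY4741 A (adjusted p = 0.104). *PIR5*, the fifth PIR gene, which lies divergently 1623 bases upstream of *HSP150*, averaged 2.67 ± 0.544 CPM in *sis2Δ* and 3.37 ± 0.121 CPM in BY4741 (SD, n = 2 each) and did not pass the test (log2 fold change -0.33, SE 0.24).

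Among the enzymes that make and reshape the wall, 1 of 28 glucan genes was called higher, 1 was called lower, and 7 had an unadjusted p under 0.05. Called or not, 16 were higher and 12 lower. Called genes made up 7.14% of this list and 6.07% of all tested genes, and 25.0% of this list and 21.0% of all tested genes had an unadjusted p under 0.05. *SUN4*, which encodes a glucanase-like protein of septation, rose to 224 ± 5.51 CPM in *sis2Δ*, against 164 ± 14.5 CPM in BY4741 (SD, n = 2 each; log2 fold change 0.45, SE 0.11, adjusted p = 0.0321). *KNH1*, a homologue of the β-1,6-glucan gene *KRE9*, fell to 32.9 ± 0.0257 CPM in *sis2Δ*, against 47.8 ± 2.64 CPM in BY4741 (SD, n = 2 each; log2 fold change -0.54, SE 0.11, adjusted p = 0.0164). *SUN4* was not called without *sis2Δ* A (adjusted p = 0.0711) or BY4741 B (adjusted p = 0.329), nor *KNH1* with library size alone (adjusted p = 0.0578), without *sis2Δ* A (adjusted p = 0.059) or without BY4741 A (adjusted p = 0.0863). *FKS1*, the catalytic subunit gene of β-1,3-glucan synthase, averaged 1689 ± 184 CPM in *sis2Δ* and 1618 ± 66.9 CPM in BY4741 (SD, n = 2 each; log2 fold change 0.06, SE 0.21). Of 12 chitin synthesis genes, 0 passed edgeR's test, 2 had an unadjusted p under 0.05, and limma-voom and DESeq2 called 0. Of 17 genes of cell separation and early G1, 16 were higher, against 49.0% of all tested genes, with a median log2 fold change of 0.38. The unadjusted p was under 0.05 for 11 of the 17, against 21.0% of all tested genes. In this list 3 genes passed the test as higher (*CTS1*, *EGT2* and *AMN1*), against 2.72% of all tested genes. The list was written knowing that these 3 genes had been called on the same libraries, so its count is not independent of that result, and 0 of the 17 genes were called without BY4741 B. Without BY4741 A the adjusted p was 0.276 for *CTS1* and 0.12 for *AMN1*. That of *EGT2* was 0.156 without *sis2Δ* A, 0.0574 with no filter beyond 1 count and 0.0507 with the legacy fit.

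**Figure D4:**
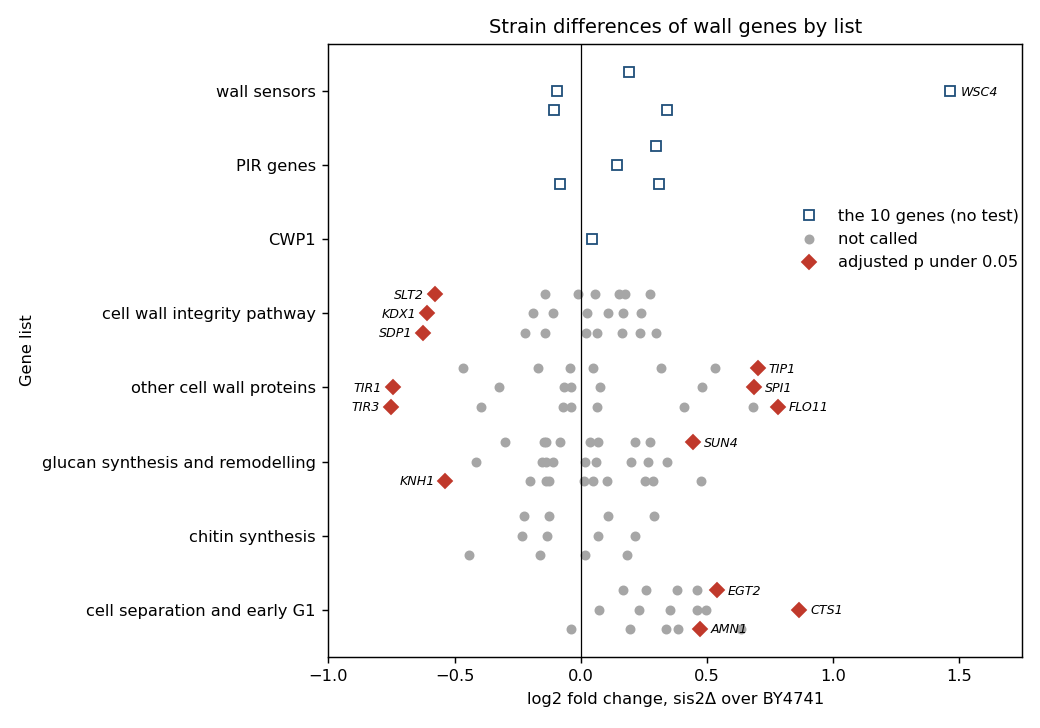
Log2 fold change of *sis2Δ* over BY4741 for each tested gene of the sensor and PIR genes, *CWP1* and the 5 lists of other wall genes, with open blue squares for the 10 genes, red diamonds for an adjusted p under 0.05 in edgeR's test of the other genes and grey circles for the rest; the height within a row has no meaning. *SLT2*, *KDX1* and *SDP1* lie between -0.63 and -0.58, and *WSC4* at 1.46.

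The genes beside the 10 were also read, to see how local the values were. *OCA5*, which is transcribed away from *WSC4* across 794 bases, had 44.4 and 38.6 CPM in *sis2Δ*, against 30.2 and 32.0 CPM in BY4741. Both *sis2Δ* libraries were higher, with a log2 fold change of 0.42 (SE 0.12, adjusted p = 0.0674 by edgeR), so it did not pass the test. *RIM101*, 530 bases downstream of *WSC4* on the same strand and named after its values were seen, had 131 and 114 CPM in *sis2Δ*, against 110 and 93.3 CPM in BY4741 (log2 fold change 0.27, SE 0.12, adjusted p = 0.205). *POP3*, divergent from *WSC2* across 991 bases, gave a log2 fold change of 0.04 (SE 0.15). *YKL162C*, downstream of *PIR3*, gave a log2 fold change of -0.06 (SE 0.12), and *YJU2*, downstream of *CWP1*, of -0.11 (SE 0.12). Of the other neighbours, 2 were called, where 6.07% of all tested genes were. The share of neighbours called was not computed, and nothing is read from so small a count. These 2 are named after their values were seen. *FAR1*, 887 bases upstream of *CIS3* on the same strand, encodes the inhibitor that arrests the cell cycle in response to pheromone. It averaged 101 ± 0.837 CPM in *sis2Δ* and 67.5 ± 3.39 CPM in BY4741 (SD, n = 2 each; log2 fold change 0.58, SE 0.10, adjusted p = 0.00639 by edgeR). *NDJ1*, a meiotic telomere protein gene 587 bases upstream of *WSC3* on the same strand, had 38.5 and 38.5 CPM in *sis2Δ*, against 27.4 and 27.0 CPM in BY4741 (log2 fold change 0.50, SE 0.12, adjusted p = 0.0249 by edgeR). *JIP3*, an open reading frame that overlaps *MID2* by 371 bases on the other strand, was at most 0.476 CPM in any library, and the reads were counted by strand.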

How the data were processed

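The authors trimmed reads with Cutadapt 3.7, mapped them to R64 with RNA STAR 2.7.8a, counted them per gene with featureCounts 2.0.1 as reverse-stranded, and deposited the raw counts of 6692 genes. The annotation they used and their treatment of reads with several positions are not given in the sources used here. A second deposited table holds the log2 fold changes and p-values of the authors' own limma-voom comparison and was not used. Strain and replicate were taken from the titles, and a Greek final letter was read as B.

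Genes reaching 0.5 CPM in 2 libraries or more were kept, scaled by TMM and compared in R 4.3.3 with edgeR 4.0.16 (quasi-likelihood test, Benjamini-Hochberg adjustment over 5959 genes, threshold 0.05). Each SE is the size of the log2 fold change divided by the square root of the F statistic of that edgeR test. The study used limma-voom, here an alternative (limma 3.58.1), as was DESeq2 1.42.0. Other alternatives were 2 other scalings (by library size alone and by median-ratio size factors), 2 other filters (a single count, or 10 counts in all libraries), the legacy quasi-likelihood form, a replicate block and leaving out each library. An exact two-sided permutation test of 2 against 2 libraries cannot go below 0.333, so calls rest on the spread modelled across genes. The replicates of a strain differed by more than counting noise (chi-square per degree of freedom of 19.8 in BY4741 and 58.0 in *sis2Δ*). At this depth 3 counts equal 0.107 to 0.158 CPM, a floor that covers counting error only. The fits were tested on simulated data.

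The genes and lists were chosen with earlier results of these data known. Genes named outside the 10 were set by a rule: *PIR5*, *MTL1*, *CWP2*, up to 5 called genes of each list, and genes sharing an upstream region with one of the 10. *RLM1*, *PKC1*, *RHO1*, *BCK1* and *FKS1* are members of the lists named for their roles. *RIM101*, *FAR1*, *NDJ1*, *YKL162C*, *YJU2* and *JIP3* lie beside the 10 genes and were named outside the rule, after their values were seen. A further motif that was searched is not reported here. Symbols, coordinates and coding sequences come from the RefSeq annotation of R64, in which 6008 of the 6692 identifiers were found.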

Additional observations from a re-analysis of the deposited data

How the results depend on the processing

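Over the 12 alternatives run, the log2 fold change of *WSC4* lay between 1.25 and 1.66. Of the 10 genes, 2 were called in place of 1 with the replicate block and without BY4741 A, the second being *WSC2*, and as the strain comparison was known when the genes were chosen, nothing is read from these counts. The count over all genes was 362 and became 788 with the replicate block. The study describes the cultures as independent, and deviations of same-lettered libraries correlated at 0.086 over 5959 genes. A single correlation over all genes cannot show whether some genes share an effect of the letter, and this was not tested. With the replicate block the calls were 4 in place of 2 for glucan genes, 1 in place of 0 for chitin genes and 10 in place of 3 for cell separation genes. Cell separation genes also gave 6 calls with DESeq2, 5 with median-ratio size factors, 5 with library size alone, 2 with no filter beyond 1 count and 2 with the legacy fit, and limma-voom gave 2 in place of 5 for other wall proteins. Scaling by library size alone raised the share of higher calls over all genes to 59.5%, against 44.8%. Leaving out 1 library at a time gave 190 (without *sis2Δ* A) to 985 (without *sis2Δ* B) calls over all genes and 1 to 2 for the 10 genes. It gave 2 to 5 for the signalling list (without *sis2Δ* A or BY4741 A, and without *sis2Δ* B), and 1 (without BY4741 B) to 6 (without *sis2Δ* B) for other wall proteins. It gave 0 (without *sis2Δ* A) to 5 (without *sis2Δ* B) for glucan genes, 0 to 1 (without *sis2Δ* B) for chitin genes and 0 (without BY4741 B) to 9 (without *sis2Δ* B) for cell separation genes. The cause of these differences was not tested. With 3 libraries the lone library of a strain is assumed to vary like the others. Of the genes named with a call, 0 changed direction under these alternatives, and the genes of the lists lost their call in 31 combinations of gene and alternative. Each of the 10 genes had at least 373 counts in every library, and precision is limited by there being 2 libraries per strain.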
